A study of Mus musculus with 8 samples.

Results

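The genes described here write, copy and remove DNA methylation in mouse pre-iPSCs: the DNA methyltransferases Dnmt1, Dnmt3a and Dnmt3b, their partners Dnmt3l and Uhrf1, and the dioxygenases Tet1, Tet2 and Tet3. They were chosen by name, as every probe set that the array's annotation assigns to 1 of these 8 symbols alone. That gave 8 of the 18193 genes with such a probe set and 20 of the 45037 probe sets tested, with 5 for Dnmt3a, 4 for Tet1, 3 for Dnmt1, 2 each for Dnmt3b, Uhrf1 and Tet2, and 1 each for Dnmt3l and Tet3. Pre-iPSCs are partially reprogrammed cells that divide stably without becoming pluripotent. The medium was that of embryonic stem cells, and total RNA was taken after 3 days of siRNA. Control arrays (n = 3) come from cells given siRNA against luciferase, which is not a mouse gene. 3XHMT arrays (n = 2) come from cells given siRNA against Ehmt1, Ehmt2 and Setdb1 together, which are among the enzymes that place methyl groups on lysine 9 of histone H3. Cbx3 arrays (n = 3) come from cells given siRNA against Cbx3, which encodes HP1 gamma, a protein that binds this histone mark. The labels number biological replicates but do not say which step was repeated, so p-values measure only the spread between these arrays, and 8 arrays limit the precision of every value.

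Dnmt3a and Dnmt3b place new methyl groups on cytosines that precede guanines (CpG sites), Dnmt3l has no catalytic activity and assists them, and Uhrf1 binds hemimethylated DNA after replication and brings in Dnmt1, which copies the pattern to the new strand. The Tet enzymes oxidise methylated cytosine, which leads to its loss through replication or through excision by Tdg and base excision repair. In mouse embryonic stem cells Tet1 and Tet2 are abundant and Tet3 is scarce, and histone H3 lysine 9 methylation and DNA methylation often lie on the same silent sequences.

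Promoter sequence is shown for Dnmt3b and Dnmt3l, the members that lay furthest above control in 3XHMT cells, and for Tet1. The Tet1 level, like that of Tet2, followed a control signal of the arrays that is described below and whose origin is not known. Each line gives the bases before the annotated gene within a RefSeq promoter window of assembly GRCm38.p6, 5′ to 3′ on the gene's strand, with CpG sites in capitals. The Dnmt3b stretch is chr2:153649199-153649410 on the plus strand, with 16 CpG sites in 212 bases. The Dnmt3l stretch is chr10:78042037-78042286 on the plus strand, with 5 CpG sites in 250 bases. The Tet1 stretch is chr10:62887470-62887574 on the minus strand, with 7 CpG sites in 105 bases.
Dnmt3b: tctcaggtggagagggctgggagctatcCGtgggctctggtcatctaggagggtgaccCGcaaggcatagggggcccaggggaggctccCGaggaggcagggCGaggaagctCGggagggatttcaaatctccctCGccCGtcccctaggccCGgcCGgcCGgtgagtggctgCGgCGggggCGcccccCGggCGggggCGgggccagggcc
Dnmt3l: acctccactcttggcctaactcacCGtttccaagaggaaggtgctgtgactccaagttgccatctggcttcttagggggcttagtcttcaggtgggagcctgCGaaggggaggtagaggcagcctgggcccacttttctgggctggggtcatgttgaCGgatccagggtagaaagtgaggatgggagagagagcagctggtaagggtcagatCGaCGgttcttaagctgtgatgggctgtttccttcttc
Tet1: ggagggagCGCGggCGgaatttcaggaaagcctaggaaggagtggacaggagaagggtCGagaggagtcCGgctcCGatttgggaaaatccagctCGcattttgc

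Over whole windows of 300 bases (250 before and 50 after a transcript start), the 8 genes had 15 windows with 2 to 57 CpG sites and a median of 18. The median over all 32851 mouse windows was 7. The single Tet2 window held 57 CpG sites, more than 99.8% of all windows, and the Dnmt3b window held 30. The 3 Dnmt3l windows held 6, 4 and 3, so this methyltransferase partner has the CpG-poorest promoter windows of the 8 genes apart from the first of 3 windows of Dnmt1, which held 2. The letters GGGCGG, searched on both strands as the core of a GC box, occurred in 12 of the 15 windows and in 35.7% of all windows. The E2F-type letters TTTCCCGC occurred in 0 of the 15 and in 1.07% of all, and TTTGGCGC occurred in 1 of the 15, a Dnmt1 window, and in 0.514% of all. A match describes letters in a window and does not show binding.

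All levels below are log2 values that the authors made with RMA, where 1 unit is a doubling of signal, and the level of 1 probe set was not set against that of another. Differences were fitted with limma, and a probe set counts as called at a Benjamini-Hochberg adjusted p under 0.05 over all 45037 probe sets. A control probe set for 18S ribosomal RNA, named for its middle part, split the arrays into 3 sets that crossed the groups. Its signal was lowest, 9.98 to 10.17, on control 3, 3XHMT 2 and Cbx3 3. It was 11.22 and 11.50 on control 1 and Cbx3 1, and 12.57 to 12.82 on control 2, 3XHMT 1 and Cbx3 2. Arrays of different groups in the same set deviated from their group means together, with correlations over probe sets of 0.51 to 0.74 in 7 pairs against -0.66 to 0.22 in 14 pairs from different sets. Differences are therefore given also with the 18S set as a block, and as each array minus the control array of its own set. Deviations cancel within a group, so these pairs are not independent. The 2 3XHMT arrays mirror each other exactly (r = -1), so each correlation with 1 of them recurs with the opposite sign for the other. Array medians were 5.87 to 5.90. In the cells as labelled, the brightest Cbx3 probe set, which is annotated also to the pseudogene Cbx3-ps5, stood at 42.8% of control after Cbx3 siRNA (limma, adjusted p = 0.0453). After the triple siRNA Setdb1, Ehmt2 and Ehmt1 stood at 63.2%, 66.8% and 79.6%, with no call.

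**Figure D1:**
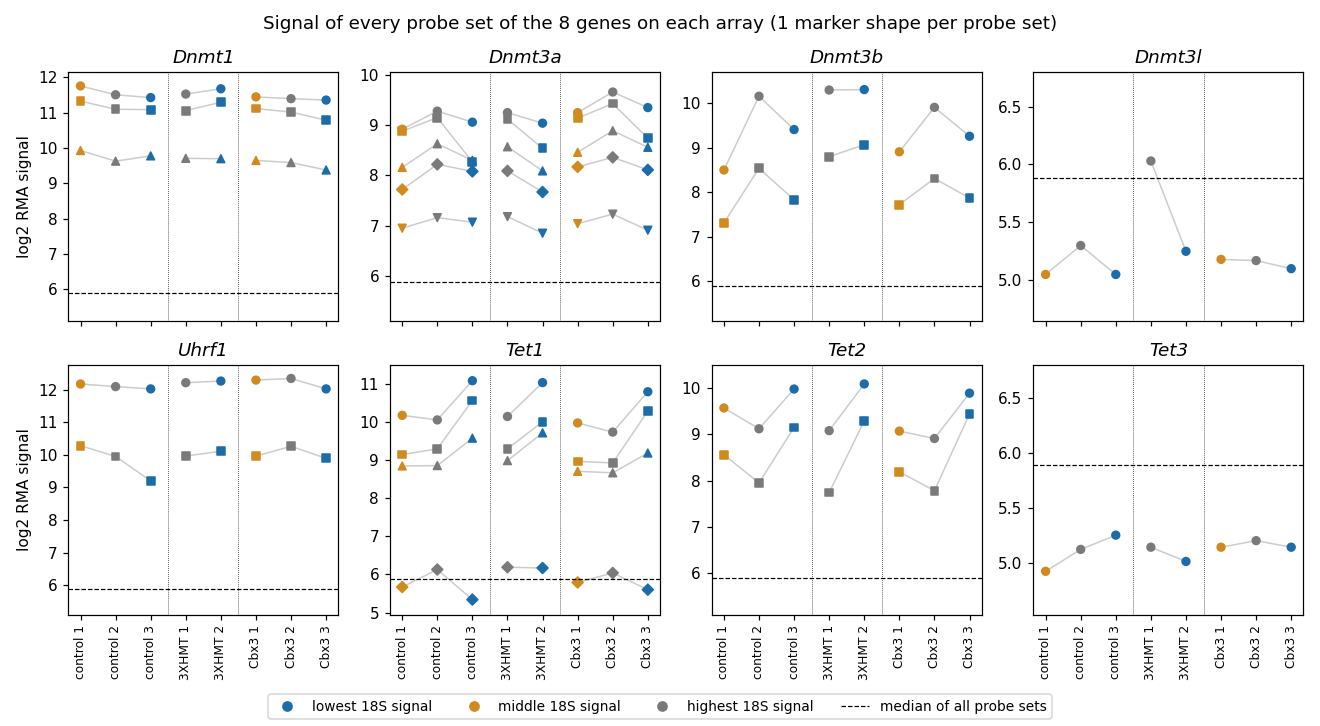
Log2 RMA signal (vertical axis) of all 20 probe sets of the 8 genes on each of the 8 arrays (horizontal axis, control, 3XHMT and Cbx3 separated by dotted lines), with 1 marker shape per probe set, colour for the 18S set and a dashed line at the median of all probe sets. Blue points, the arrays of lowest 18S signal, are the highest of their group for 3 Tet1 and both Tet2 probe sets, and both Dnmt3b probe sets are highest on the 3XHMT arrays.

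None of the 20 probe sets was called in any of the 3 comparisons. The most visible difference was in Dnmt3b, whose 2 probe sets were 1.92- and 2.06-fold the control in 3XHMT cells. With the 18S set as a block they were 1.53- and 1.78-fold. For 3XHMT against control, 0 of 20 members were called, where 0.0555% of all probe sets were, and the lowest adjusted p was 0.880 (limma). For Cbx3 against control 0 of 20 were called against 0.0777% of all, with a lowest adjusted p of 0.713. For 3XHMT against Cbx3 0 of 20 were called against 0.528% of all, with a lowest adjusted p of 0.394. At an unadjusted limma p under 0.05, the members numbered 2 of 20 (10%) for 3XHMT against control, where the share of all probe sets was 4.19%. They numbered 0 of 20 for Cbx3 against control, against 7.23% of all, and 1 of 20 (5%) for 3XHMT against Cbx3, against 8.74% of all. With the 18S set as a block, limma also called 0 of 20 members in each comparison, against 0.699%, 3.43% and 4.66% of all probe sets, and the lowest adjusted p were 0.183, 0.111 and 0.0885. At an unadjusted limma p under 0.05 that fit gave 4, 6 and 8 of 20. The share of all probe sets at that threshold was not counted, so these counts have no background beside them. The values of the 2 groups did not overlap for 4 of 20 members (20%) in 3XHMT against control, for 0 in Cbx3 against control and for 8 (40%) in 3XHMT against Cbx3. Over all probe sets these shares were 15.4%, 11.9% and 23.4%. The median log2 difference of the members was 0.05, 0.01 and 0.18 in the 3 comparisons, and that of all probe sets 0.00 in each. The comparisons share groups, so their members' values are not independent of each other.

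**Figure D2:**
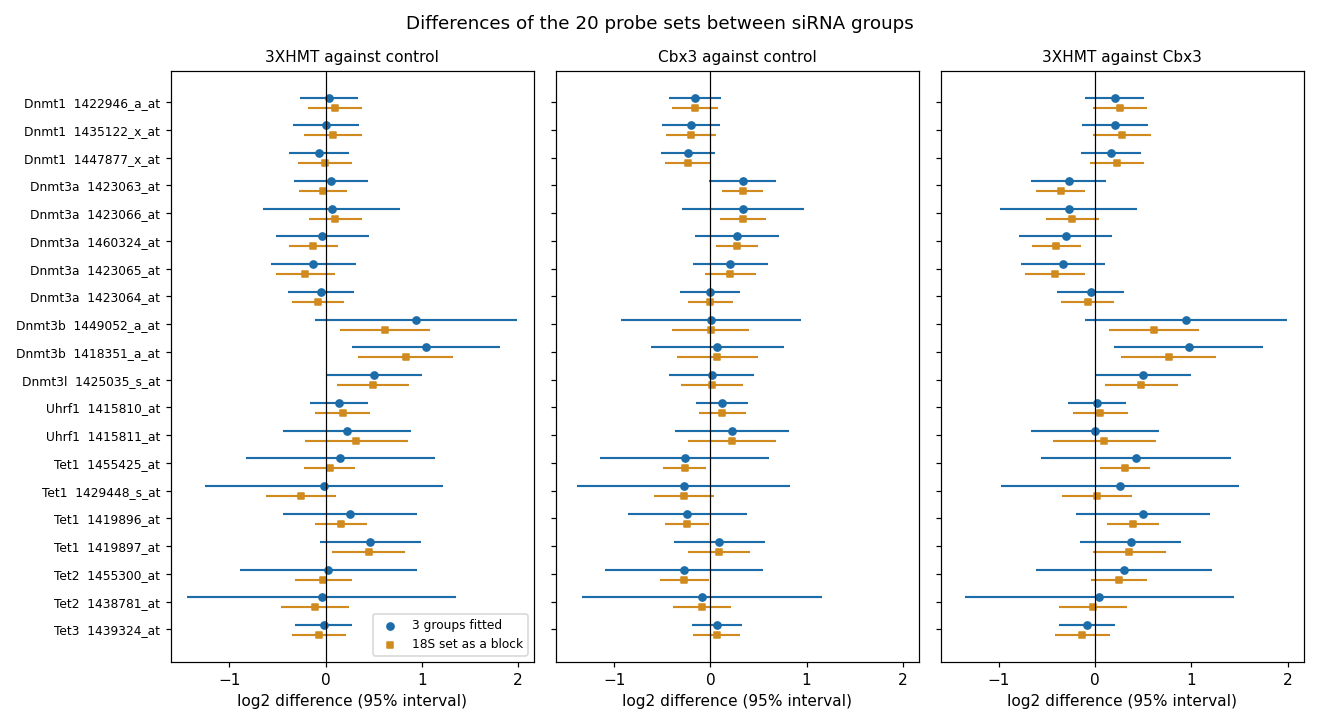
Log2 difference between groups (horizontal axis) with its 95% interval for each of the 20 probe sets (vertical axis) in the 3 comparisons, from the limma fit of the 3 groups (blue circles) and from the fit with the 18S set as a block (orange squares). Dnmt3b lies furthest from 0 in both comparisons that involve 3XHMT, and the block narrows the Tet1 and Tet2 intervals, for example from -0.83 to 1.14 down to -0.22 to 0.30 for the brightest Tet1 probe set in 3XHMT against control.

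Among the enzymes that methylate unmodified DNA, Dnmt3b is described first. Its brighter probe set, 1449052_a_at, read 8.50, 10.16 and 9.41 on control arrays 1 to 3, 10.30 and 10.31 on the 3XHMT arrays, and 8.91, 9.91 and 9.26 on Cbx3 arrays 1 to 3. Both 3XHMT arrays were above every control and Cbx3 array, by a small margin over control 2. Control and Cbx3 overlapped and were lowest on the arrays of middle 18S signal, control 1 and Cbx3 1, a set with no 3XHMT array. Relative to the control of the same 18S set, 3XHMT 1 was higher by 0.14 and 3XHMT 2 by 0.90. The mean was 9.36 ± 0.83 (SD, n = 3) in control, 10.30 ± 0.01 (n = 2) in 3XHMT and 9.36 ± 0.51 (n = 3) in Cbx3 cells. The 3XHMT mean was 1.92-fold the control mean (limma, log2 difference 0.94 ± 0.46 SE, 95% interval -0.11 to 1.99, adjusted p = 1.00), and 1.53-fold with the 18S set as a block (adjusted p = 0.343).

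The other Dnmt3b probe set, 1418351_a_at, read 7.31, 8.54 and 7.83 in control, 8.80 and 9.07 in 3XHMT, and 7.72, 8.31 and 7.87 in Cbx3 cells. It repeated the pattern of the first, with both 3XHMT arrays above the other 6. The 3XHMT mean was 2.06-fold the control mean (limma, log2 difference 1.04 ± 0.33 SE, 95% interval 0.27 to 1.81, adjusted p = 0.880). With the 18S set as a block it was 1.78-fold (adjusted p = 0.183). Against Cbx3 cells it was 1.96-fold (limma, log2 difference 0.97 ± 0.33 SE, adjusted p = 0.394), with an adjusted p of 0.0942 under the block. That blocked difference passed the threshold only when control 2 was left out (log2 difference 0.82, adjusted p = 0.0497) or 3XHMT 1 was (1.19, adjusted p = 0.0281). It was 0.34 (adjusted p = 0.635) without 3XHMT 2, the array on which Dnmt3b was furthest above its set. Relative to the control of the same 18S set, 3XHMT 1 was higher by 0.26 and 3XHMT 2 by 1.24, and the Cbx3 arrays differed by 0.41, -0.22 and 0.03. The sizes of the 2 within-set differences in 3XHMT cells are thus far apart, although both are above 0. Cbx3 cells showed little mean difference from control for either probe set, at 0.00 ± 0.41 SE for 1449052_a_at (95% interval -0.93 to 0.94) and 0.07 ± 0.30 SE for 1418351_a_at.

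Dnmt3a, the other enzyme for new methylation, lay slightly above control in Cbx3 cells on most probe sets and near control in 3XHMT cells. Its brightest probe set, 1423063_at, read 8.92, 9.28 and 9.06 in control, 9.25 and 9.04 in 3XHMT, and 9.25, 9.66 and 9.35 in Cbx3 cells. Control and Cbx3 values overlapped only through Cbx3 1 and control 2, and both 3XHMT values lay at or below the lowest Cbx3 value. The Cbx3 mean was 1.26-fold the control mean (limma, log2 difference 0.33 ± 0.15 SE, 95% interval -0.01 to 0.68, adjusted p = 0.713), with an adjusted p of 0.111 when the 18S set was a block. Within sets the 3 Cbx3 arrays exceeded their controls by 0.33, 0.38 and 0.29, a narrow range, and the 3XHMT arrays differed by -0.03 and -0.02.

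The remaining Dnmt3a probe sets gave the same order for 3 of 4. In Cbx3 cells 1460324_at exceeded the control of its set by 0.30, 0.27 and 0.26, and 1423066_at by 0.27, 0.28 and 0.47. For 1423065_at the differences were 0.45, 0.14 and 0.03, and for 1423064_at, the dimmest, they were 0.09, 0.07 and -0.17. Every Cbx3 array was thus above its matching control on 4 of the 5 probe sets, and 1423064_at was the exception. Their blocked adjusted p for Cbx3 against control were 0.139 for 1423066_at, 0.201 for 1460324_at and 0.475 for 1423065_at. Probe sets of 1 gene read the same RNA and are not replicates. In 3XHMT against Cbx3, all 5 Dnmt3a probe sets had negative log2 differences, from -0.34 to -0.05, and 1423063_at and 1423065_at did not overlap between the groups. The lowest blocked adjusted p of the 5 was 0.0885, for 1460324_at.

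Dnmt3l, the partner without catalytic activity, was dim throughout. Its 1 probe set, 1425035_s_at, read 5.05, 5.30 and 5.05 in control, 6.03 and 5.25 in 3XHMT, and 5.18, 5.17 and 5.10 in Cbx3 cells. Only 3XHMT 1 stood apart and above the array median, and 3XHMT 2 lay inside the control range. The 3XHMT mean was 1.42-fold the control mean (limma, log2 difference 0.51 ± 0.22 SE, 95% interval 0.01 to 1.00, adjusted p = 1.00), and this rests on 3XHMT 1, which exceeded the control of its set by 0.73 against 0.20 for 3XHMT 2. In Cbx3 cells the difference was 0.01 ± 0.19 SE (95% interval -0.43 to 0.46). Signal near background compresses fold changes, so the size of a change at this level is uncertain.

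The maintenance pair, Dnmt1 and Uhrf1, was bright in all groups. Dnmt1 probe set 1422946_a_at read 11.76, 11.51 and 11.43 in control, 11.53 and 11.68 in 3XHMT, and 11.45, 11.40 and 11.36 in Cbx3 cells. The Cbx3 values were at the low end and met the control range at control 3, and the 3XHMT values lay inside the control range. Relative to the control of the same set, this probe set was lower on all 3 Cbx3 arrays, by -0.31, -0.11 and -0.07, as were 1435122_x_at (-0.21, -0.09 and -0.30) and 1447877_x_at (-0.27, -0.04 and -0.39). Mean log2 differences of the 3 Dnmt1 probe sets in Cbx3 cells were -0.16, -0.20 and -0.23 with SE of 0.12 to 0.13 (limma, adjusted p of 0.968, 0.937 and 0.808). In 3XHMT cells 1422946_a_at differed from control by 0.04 ± 0.13 SE, with a 95% interval of 0.833- to 1.27-fold.

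Uhrf1 was measured by a bright and a less bright probe set. 1415810_at read 12.17, 12.09 and 12.02 in control, 12.21 and 12.26 in 3XHMT, and 12.29, 12.34 and 12.02 in Cbx3 cells. The 3XHMT values were above all control values, by a log2 difference of 0.14 ± 0.13 SE (95% interval -0.16 to 0.44), and the Cbx3 values spanned a wider range than the control values. 1415811_at read 10.28, 9.95 and 9.20 in control, 9.96 and 10.11 in 3XHMT, and 9.96, 10.26 and 9.89 in Cbx3 cells. Here control 3 was far below the other 7 arrays, and the bright probe set read 12.02 there, the same as on Cbx3 3.

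Tet1 was high in all groups, and its level followed the 18S sets more than the siRNA. Its brightest probe set, 1455425_at, read 10.18, 10.06 and 11.09 in control, 10.15 and 11.04 in 3XHMT, and 9.98, 9.74 and 10.80 in Cbx3 cells. The high array of each group was the one of lowest 18S signal, and the 3 groups overlapped. The 3XHMT mean differed from control by 0.16 ± 0.43 SE (95% interval -0.83 to 1.14), and with the 18S set as a block by 0.04 (95% interval -0.22 to 0.30). The Cbx3 mean differed from control by -0.27 ± 0.38 SE, with a blocked 95% interval of -0.49 to -0.05 and a blocked adjusted p of 0.226 (limma). On this probe set the 3 Cbx3 arrays were below the control of their set, by -0.20, -0.32 and -0.29. The same held for 1429448_s_at (-0.17, -0.37 and -0.29) and for 1419896_at (-0.14, -0.19 and -0.39). The fourth Tet1 probe set, 1419897_at, is dim, at 5.67, 6.13 and 5.34 in control, 6.19 and 6.17 in 3XHMT, and 5.79, 6.04 and 5.60 in Cbx3 cells. It did not share the pattern of the other 3, since it was lowest on the low-18S arrays of the control and Cbx3 groups, and its 3XHMT values were above every other array.

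Tet2 behaved like the bright Tet1 probe sets. 1455300_at read 9.57, 9.12 and 9.98 in control, 9.08 and 10.09 in 3XHMT, and 9.07, 8.91 and 9.89 in Cbx3 cells. 1438781_at read 8.56, 7.95 and 9.15 in control, 7.74 and 9.29 in 3XHMT, and 8.19, 7.78 and 9.44 in Cbx3 cells. In each group the low-18S array was highest on both probe sets, so that the spread inside the 3XHMT group, 1.55 between its 2 arrays on 1438781_at, exceeded every difference between group means of that probe set. For 1455300_at the 3XHMT mean differed from control by 0.03 ± 0.40 SE, or -0.02 with the block (95% interval -0.32 to 0.27). The Cbx3 mean differed from control by -0.27 ± 0.36 SE, with a blocked 95% interval of -0.52 to -0.02 and a blocked adjusted p of 0.288 (limma). Within sets the Cbx3 arrays differed from control by -0.50, -0.22 and -0.09 on 1455300_at, and by -0.38, -0.16 and 0.28 on 1438781_at, so the second probe set did not keep the direction.

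Tet3, the Tet enzyme of the oocyte and of differentiated cells, was at the low end of the signal range. Its 1 probe set, 1439324_at, read 4.92, 5.12 and 5.25 in control, 5.14 and 5.01 in 3XHMT, and 5.14, 5.20 and 5.14 in Cbx3 cells. All 8 values were below the array medians and the 3 groups overlapped. The difference from control was -0.02 ± 0.13 SE in 3XHMT (95% interval -0.31 to 0.27) and 0.07 ± 0.11 SE in Cbx3 cells (95% interval -0.20 to 0.33).

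**Figure D3:**
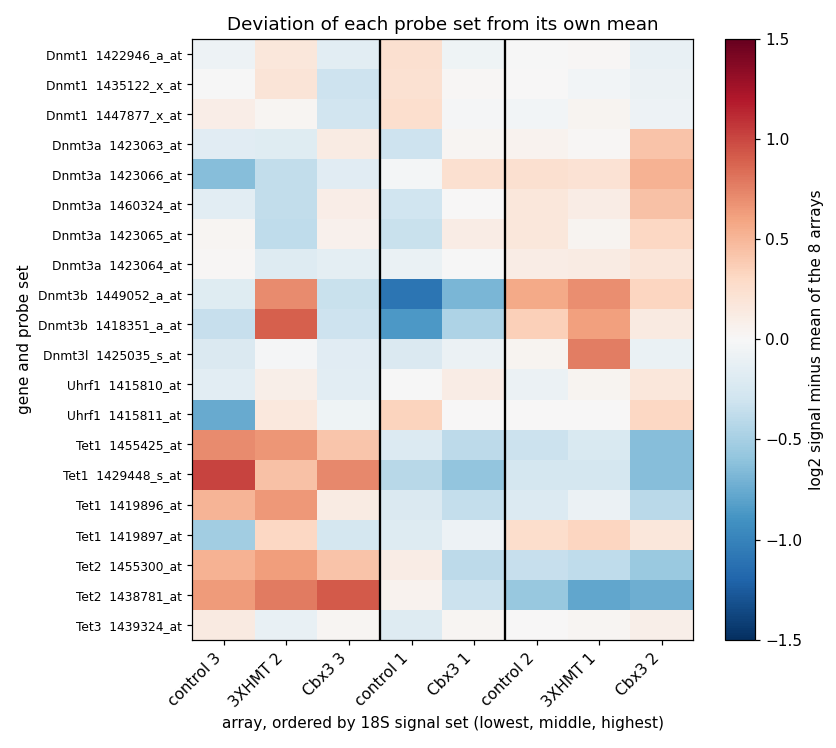
Log2 signal of each of the 20 probe sets (vertical axis) minus its own mean over the 8 arrays (colour, red above and blue below), with the arrays (horizontal axis) ordered by 18S set from lowest to highest and lines between the sets. On the 3 low-18S arrays at the left, 3 Tet1 and both Tet2 probe sets are red, and both Dnmt3b probe sets are bluest on control 1 and red on both 3XHMT arrays.

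The shared behaviour of Tet1 and Tet2 can be stated against all probe sets. Each low-18S array was set against the other arrays of its own group, which gave 5 pairs. Tet1 1455425_at was higher on the low-18S array in 5 of 5 pairs, by 0.82 to 1.06, 1429448_s_at by 0.71 to 1.43 and 1419896_at by 0.48 to 0.73. Tet2 1455300_at was higher in 5 of 5 pairs by 0.41 to 1.01, and 1438781_at by 0.59 to 1.65. Tet1 1419897_at was higher in 0 of 5 pairs, with differences of -0.79 to -0.01. Of all 45037 probe sets, 16.6% were above and 15.9% below in all 5 pairs, and 1.63% were above by at least 0.5 in all. The pairs share arrays, and this is a description with no test. The part of the 18S signal, or of whatever it stands for, in the Tet1 and Tet2 levels was not tested.

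Over the 8 arrays, the brightest probe sets of Tet1 and Tet2 correlated at r = 0.96, and at 0.96 in deviations from group means. Dnmt1 and Tet3 correlated at -0.90 in levels and -0.95 in deviations, Dnmt1 and Dnmt3a at -0.74 and -0.54, and Dnmt3b and Dnmt3l at 0.59 and 0.25. Dnmt3a and Dnmt3b correlated at 0.33 in levels and at 0.88 in deviations. These 8 points share the 18S sets and the groups, and the values are descriptive.

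Among 11091 genes compared by their brightest probe set (11092 for Dnmt3l and Tet3), the genes whose levels followed each member most closely over the 8 arrays were named by Pearson's r. For Dnmt3b these were Car4 (r = 0.984), Prss55 (0.965) and Gdf3 (0.961), and for Dnmt3l they were Tex19.1 (0.979), Nova2 (0.966) and Ddhd2 (0.954). For Dnmt3a they were Slc46a1 (0.979), Sh3tc1 (0.968) and Dmrt1 (0.968). For Tet1 they were Fem1b (0.995), Vps50 (0.992) and Ipo8 (0.991), and for Tet2 Tex9 (0.992), Usp24 (0.985) and Tars2 (0.984). For Dnmt1 they were Rps27l (0.984), Pigx (0.965) and Chrnb1 (0.961), for Uhrf1 Disp1 (0.950), Calhm2 (0.946) and Dcun1d5 (0.934), and for Tet3 Mast1 (0.979), Btbd9 (0.960) and Armc9 (0.937). With 8 arrays in 3 sets and so many genes, these r are descriptions and carry no p.

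Genes that work around these enzymes were followed through 6 lists: readers of methylated CpG, partners and regulators of the Dnmt enzymes and Uhrf1, Tet partners and the metabolism of their cofactors, base excision repair, methyl donor metabolism, and germline genes that DNA methylation keeps silent. Of 103 genes 89 were measured, and limma called 0 in each of the 3 comparisons. At an unadjusted p under 0.05 there were 4 (4.49%) for 3XHMT against control, 11 (12.4%) for Cbx3 against control and 14 (15.7%) for 3XHMT against Cbx3, beside 4.19%, 7.23% and 8.74% of all probe sets, so that the first share was near the background. With the 18S set as a block, 0 were called for 3XHMT against control, 4 lower for Cbx3 against control, and 5 higher and 2 lower for 3XHMT against Cbx3. These are 4.49% and 7.87% of the 89 genes in the 2 comparisons with calls, beside 3.43% and 4.66% of all probe sets under the same block, and the count for Cbx3 is close to that share. These shares are not a like measure, since each of the 89 genes was read at its brightest probe set and the shares cover all probe sets. With only the brightest probe set of each of 18193 genes fitted, limma called 42, 81 and 275 in the 3 comparisons, and 0 of the 89. The median log2 difference of the 89 genes was 0.04, -0.01 and 0.06.

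Counts for each list follow in the order of the comparisons above (each knockdown against control, 3XHMT first, then 3XHMT against Cbx3), with the median log2 difference over its measured genes. Of the methyl-CpG readers 9 of 11 were measured, and 4, 5 and 4 were higher in the first group named (median -0.02, 0.08 and -0.06). The 18 measured partners and regulators of Dnmt enzymes and Uhrf1 had 14, 8 and 13 on the higher side (median 0.08, -0.03 and 0.08), among 18 listed. Of the Tet partners and cofactor genes 13 of 15 were measured, and 10, 10 and 7 were higher in the first group named (median 0.05, 0.07 and 0.01). Of all probe sets, 50.7%, 51.2% and 50.1% were higher in the 3 comparisons, and the lists' sides were not tested. The 16 measured base excision repair genes had 7, 6 and 10 on the higher side (median -0.01, -0.01 and 0.08), among 19 listed. Of the methyl donor genes 16 of 20 were measured, and 12, 7 and 11 were higher in the first group named (median 0.06, -0.04 and 0.08). No list had a member called without the block.

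The 4 genes called lower in Cbx3 cells under the block came from 4 different lists. Idh1, which makes the 2-oxoglutarate that Tet enzymes consume, read 11.55, 11.21 and 11.56 in control, 11.18 and 10.98 in 3XHMT, and 10.93, 10.61 and 10.63 in Cbx3 cells. All Cbx3 values were below all control values, at 0.607 of control (limma, log2 difference -0.72 ± 0.15 SE, adjusted p = 0.175, and 0.0167 with the block). Neil3, a DNA glycosylase of base excision repair, read 8.66, 8.15 and 8.55 in control, 7.83 and 8.57 in 3XHMT, and 7.55, 7.65 and 7.61 in Cbx3 cells. The Cbx3 values were again below all others, with a log2 difference from control of -0.85 ± 0.21 SE (limma, adjusted p = 0.259, and 0.0222 with the block). Mtr, the methionine synthase that regenerates methionine for the methyl donor, read 10.01, 9.66 and 10.03 in control, 9.79 and 10.20 in 3XHMT, and 9.35, 9.12 and 9.36 in Cbx3 cells. Its difference from control was -0.63 ± 0.16 SE in Cbx3 cells (limma, adjusted p = 0.269, and 0.0112 with the block). Slc25a31, a mitochondrial ADP/ATP carrier of the germline, was dim, at 3.06 to 3.27 in Cbx3 against 3.39 to 4.10 in control cells, with a difference of -0.67 ± 0.21 SE (limma, adjusted p = 0.432, and 0.0467 with the block). These 4 calls were not all kept when 1 array was left out. Without control 1, control 3, Cbx3 1 or Cbx3 3, the blocked fit called 0 of the 89 genes. Without control 2 it called 2, Idh1 and Slc25a31. In these fits the calls over all probe sets also fell, from 1547 to between 452 and 748. Without Cbx3 2 the blocked fit called 4 of the 89 genes, Mtr, Neil3, Slc25a31 and Uhrf2, but not Idh1. It called 1198 of all probe sets there. Leaving out 3XHMT 1 or 3XHMT 2 lost Slc25a31 and gained Rhox5, although the calls over all probe sets did not fall. With fewer arrays in the fit, a lost call does not show that it rested on 1 array.

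In 3XHMT against Cbx3, where limma called 0 of the 89 genes without the block, the differences that follow are those of the fit with the block. Mtr (log2 difference 0.76, limma adjusted p = 0.0068 with the block and 0.178 without) and Slc25a31 (1.14, 0.0075 and 0.118) were among the 5 higher. Also higher were Shmt2 (0.68, 0.0114 and 0.105) and Mthfd2 (0.58, 0.0288 and 0.569), mitochondrial enzymes of folate metabolism. The other was Apobec3, a cytidine deaminase (0.64, 0.0150 and 0.0982), which read 8.19, 8.06 and 7.95 in control, 8.40 and 8.42 in 3XHMT, and 7.88, 7.83 and 7.73 in Cbx3 cells. The 2 lower were Zbtb4, a zinc finger protein that binds methylated CpG (-0.69, 0.0127 and 0.283), and Apobec1, another cytidine deaminase (-0.52, 0.0491 and 0.557). Zbtb4 read 8.87, 8.13 and 8.39 in control, 7.73 and 7.88 in 3XHMT, and 9.03, 8.32 and 8.71 in Cbx3 cells, so that both 3XHMT values were the lowest. Without 3XHMT 2 the blocked fit called 1 of the 89 genes in this comparison, Tex19.1, and without Cbx3 3 it called 0.

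The germline genes are known for promoters that DNA methylation silences outside the germline, and most were dim: 14 or 15 of the 17 measured lay under the array median on every array. In 3XHMT against control 11 were above and 6 below, with a median log2 difference of 0.06. In Cbx3 against control 7 were above and 10 below (median -0.02), and in 3XHMT against Cbx3 10 above and 7 below (median 0.06). Tex19.1, a germline gene also expressed in pluripotent cells and the gene closest to Dnmt3l above, read 5.70, 6.19 and 5.71 in control, 7.98 and 6.42 in 3XHMT, and 6.32, 6.19 and 5.97 in Cbx3 cells. It was 2.52-fold the control level in 3XHMT cells (limma, adjusted p = 0.768, and 0.0775 with the block), again mainly on 3XHMT 1, as for Dnmt3l. Lin28a, an RNA-binding protein of the list of Dnmt regulators, read 3.66, 5.54 and 4.55 in control, 5.61 and 6.10 in 3XHMT, and 4.67, 5.59 and 4.01 in Cbx3 cells. Like Dnmt3b it was lowest in the controls on control 1, and its 3XHMT mean exceeded the control mean by a log2 difference of 1.27 (limma, adjusted p = 1.00).

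**Figure D4:**
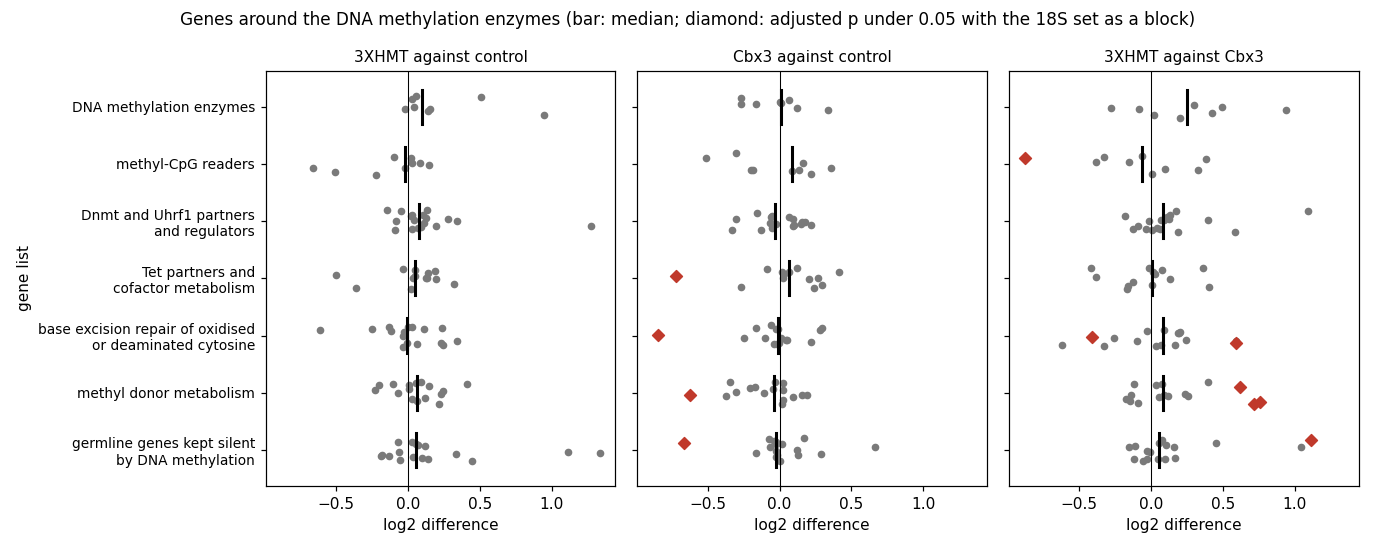
Log2 difference (horizontal axis) of the 8 enzymes and of the 89 measured genes around them, by list (vertical axis), in the 3 comparisons, with 1 point per gene, a bar at each list's median and red diamonds for genes with an adjusted p under 0.05 when the 18S set is a block. No diamond lies in the row of the 8 enzymes, 4 lie below 0 in Cbx3 against control, and 5 above and 2 below 0 in 3XHMT against Cbx3.

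Markers of cell state were read beside the Dnmt3b difference. Of 16 pluripotent cell markers all were above control in 3XHMT cells. Limma called 1 of them (Dppa4, 5.89-fold, adjusted p = 0.0267), where 0.0555% of all probe sets were called, and 4 with the 18S set as a block (Dppa4, Nanog, Zfp42 and Dppa2), where 0.699% were. Each marker of every list was read at its brightest probe set, while the shares of all probe sets include dimmer ones. The summed signal of the 16 markers was 19740 to 24080 in 3XHMT, 14509 to 19011 in control and 14426 to 16942 in Cbx3 cells. In Cbx3 cells 11 were above and 5 below control. Limma called 1 there, Nanog, higher (9.94-fold, adjusted p = 0.0428), and with the block Nanog higher and Dppa2 lower (log2 difference -0.85, blocked adjusted p = 0.0496). Of 15 fibroblast markers, which feeder or source cells would carry, 8 to 12 were below the array median on each array. Limma called 0 against control with or without the block. In 3XHMT against Cbx3 it called 0 without the block. With the block it called 1 higher (Dcn) and 3 lower (Postn, Col3a1 and Twist1), beside 4.66% of all probe sets. The summed signals of the fibroblast markers were 1961 to 3963 in control, 2350 to 2968 in 3XHMT and 1802 to 3910 in Cbx3 cells. S100a4, at 10.06 to 11.69, weighs most in these sums. The other members did not move as one in 3XHMT cells, where Dcn was 2.02-fold (limma, adjusted p = 0.339) and Twist1 0.603-fold the control level (adjusted p = 1.00). Of 12 macrophage and blood markers 9 were measured, with summed signals of 596 to 864 over all arrays. Ptprc, a surface protein of blood cells, lay at 3.25 to 3.47, while Cd14, Cd68, Csf1r and Cd3e were above the median on every array, with control means of 7.67, 7.55, 6.61 and 6.23. Of 17 proliferation markers measured, limma called 0 in each comparison. The part of cell state in the Dnmt3b and Dnmt3l values was not tested, and in such bulk RNA fewer cells of a type and less RNA per cell cannot be told apart.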

How the data were processed

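Expression was measured in 8 samples of mouse pre-iPSCs on Affymetrix arrays. The deposited table holds the authors' log2 values for 45101 probe sets. The submitters' processing notes name RMA, with version and settings not given in the sources used here. RMA quantile-normalizes arrays, which removes shifts shared by most genes. The 64 control probe sets were left out of tests. Of the others, 34945 had 1 gene symbol in the platform annotation, 932 several and 9160 none. Of those with 1 symbol, 34741 matched the RefSeq gene table (GRCm38.p6).

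Group means were fitted to all 45037 probe sets on the 8 arrays in R 4.3.3 (limma 3.58.1, two-sided eBayes after lmFit, 3 groups sharing 1 spread), with Benjamini-Hochberg adjustment over all. The code was tested on simulated data. For list genes, the probe set with the highest mean stood for the gene. Members and lists were chosen with earlier results of these data known. Besides the members, list genes could be named when called in a fit with or without a block, or as 1 of the 2 with the lowest unadjusted p of a list and comparison, and other genes by likeness. The 18S sets come from the 2 widest gaps in the signal of the 18S control probe set. Alternatives were the replicate number or the 18S set as a block, cyclic loess, a filter on dim probe sets, 1 value per gene, leaving out cross-hybridising probe sets, fitting only 2 groups, eBayes with trend and robust, and leaving out each array. Leaving out each array in the fit with the 18S set as a block was added after seeing the data.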

Additional observations from a re-analysis of the deposited data

Results flagged for a closer look

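The only rule applied was a limma adjusted p under 0.05 in 3XHMT against Cbx3. It was applied only to the members and to the list genes picked for naming, and those lists were chosen with earlier results known. None of the 8 enzymes met it, while 238 of all 45037 probe sets (0.528%) did. Among the pluripotent cell markers, the effects of the 2 knockdowns differed by the limma test of 3XHMT against Cbx3 for 3 genes, each higher in 3XHMT cells. The log2 difference was 2.88 for Dppa4 (adjusted p = 0.0102), 3.54 for Dppa2 (adjusted p = 0.0238) and 3.34 for Zfp42 (adjusted p = 0.0320). Both 3XHMT arrays exceeded all Cbx3 arrays for these genes. They did so also for Dnmt3b, which was not called, and 23.4% of all probe sets did not overlap between these 2 groups.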

How the results depend on the processing

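The limits are the number of arrays, the dim signal of Dnmt3l, Tet3 and 1 Tet1 probe set, and the 18S sets, which moved the counts of probe sets called in all 3 comparisons but not the members' counts of 0. Across 60 member differences and 1407 alternative values, 2 passed the threshold, both for Dnmt3b 1418351_a_at and given above, and 0 of the 927 planned values did. The sign changed in 135 values, and 27 of the 60 differences kept theirs. The 3XHMT against control difference stayed between 0.41 and 1.36 for Dnmt3b 1418351_a_at and between 0.26 and 1.34 for Dnmt3b 1449052_a_at.

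Arrays of different groups with the same replicate number correlated at -0.66 to 0.74 in deviations from group means (7 pairs). Control and Cbx3 arrays of the same number also share an 18S set, and correlated at 0.51, 0.62 and 0.74. The pairs that include a 3XHMT array gave -0.66 to 0.22, so the numbers are not taken as a pairing across the 3 groups. The 2 3XHMT arrays mirror each other, so the -0.66 of control 2 with 3XHMT 2 is fixed by its 0.66 with 3XHMT 1. With the replicate block, 0 members were called in each comparison (lowest limma adjusted p 0.266, 0.566 and 0.127), while probe sets called numbered 67 for 3XHMT against control (25 without it), 153 for Cbx3 against control (35) and 433 for 3XHMT against Cbx3 (238). It called 1 pathway gene in 3XHMT against Cbx3, Mthfd2. With the 18S set as a block the probe set counts were 315, 1547 and 2099, and the pathway genes called 0, 4 and 7. Fitting only the 2 groups compared gave 3, 14 and 80 probe sets. The brightest probe set of each gene gave 42 and 81 calls against control for 3XHMT and Cbx3, the mean of each gene's probe sets gave 71 for Cbx3 against control and 1 pathway gene in 3XHMT against Cbx3, Apobec3, and keeping probe sets above the median signal gave 11 for 3XHMT against control. Leaving out 1 array gave 1 to 23, 0 to 14 and 6 to 186 probe sets in the 3 comparisons, and with the 18S set as a block 72 to 332, 452 to 1776 and 930 to 1639. In these fits members called ranged from 0 to 0, 0 to 0 and 0 to 1, and pathway genes from 0 to 2, 0 to 4 and 0 to 7. The cause of these shifts was not tested.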
